A study of Mus musculus with 22 samples.

Results

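Motile cilia genes of ependymal cells were examined in the right brain hemispheres of mice that had won or lost in the tube test of social rank. The set holds 10 genes, Tmem212, Lrrc23, Foxj1, Ccdc153, Rsph1, Dnah5, Dnah11, Tekt1, Spag17 and Efcab6, out of 24421 genes in the count tables. Membership was set by gene name. The set was assembled because Tmem212 and Lrrc23 had shown small p-values for rank effects of opposite direction in males and in females, so the rank values of these 2 genes are given as a description without a test. The question for the other 8 genes was whether they followed the same pattern.

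The mice were untreated, young adult wild-type animals of the inbred strain given as C57B6/J OlaHsd in the labels, a C57BL/6 substrain, and were housed in groups in their home cage. Total RNA of 7 dominant and 7 submissive males and of 4 dominant and 4 submissive females was sequenced after removal of ribosomal RNA, 1 sample per mouse. The 2 males or 2 females with the same replicate number came from the same cage. The library names give 2 of the female cages a plain number and the other 2 a name beginning with Gr. Per the study's methods, females of intermediate rank were regrouped and took the test a second time, and the sources used here do not say whether the Gr cages are those regrouped animals. Samples had between 12403943 and 16488762 counted reads. The library names of males and females begin with different prefixes, so sex and whatever the prefixes mark cannot be told apart. Dominant male 1 had 0 counts of Pcp2, a gene of cerebellar Purkinje cells, while each of the other 21 samples had at least 19.96 CPM (counts-per-million, reads scaled by library size). On the first principal component of the males, taken over all genes kept by the filter, cages 1 to 4 lay between -1.4 and 14.6 and cages 5 to 7 between -17.3 and -8.6.

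Ependymal cells line the brain ventricles and carry tufts of motile cilia that move cerebrospinal fluid. The core of a motile cilium is a ring of doublet microtubules around a central pair. Dynein arms on the doublets drive the beat, and radial spokes and the central apparatus pace it. The programme is switched on by the forkhead factor FOXJ1 together with factors of the RFX family, which bind a promoter element called the X-box. Ependyma is a thin layer of a whole hemisphere, in which fewer ependymal cells and less RNA per ependymal cell cannot be told apart.

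Promoter sequence was looked at for GTTGCC, the core letters of the X-box, because the genes are members of an RFX-driven programme. RefSeq promoter windows of 300 bases on GRCm38.p6, from 250 bases before the annotated start to 50 after it, were found for 7 of the 10 genes. GTTGCC stood on either strand in 3 of these 7 (42.9%), Lrrc23, Ccdc153 and Tekt1. The share was 49.3% of 67 other motile cilia genes, 28.6% of 14 choroid plexus genes and 14.1% of all 27025 genes with a window. The forkhead letters GTAAACA, searched on both strands, were in 0 of the 7 windows and in 4.05% of all genes. The 250 bases before the start are printed 5′ to 3′ on the strand of the gene for the 3 genes with GTTGCC and for Tmem212, which had none and whose female ranks lay farthest apart among the 10 genes. Capitals mark GTTGCC or its reverse complement GGCAAC.
Lrrc23, chr6:124779728-124779977, minus strand: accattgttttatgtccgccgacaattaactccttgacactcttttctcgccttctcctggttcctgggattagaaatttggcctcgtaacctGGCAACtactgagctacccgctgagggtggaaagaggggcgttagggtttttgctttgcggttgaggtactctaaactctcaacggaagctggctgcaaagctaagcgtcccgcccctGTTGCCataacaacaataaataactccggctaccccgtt
Ccdc153, chr9:44240427-44240676, plus strand: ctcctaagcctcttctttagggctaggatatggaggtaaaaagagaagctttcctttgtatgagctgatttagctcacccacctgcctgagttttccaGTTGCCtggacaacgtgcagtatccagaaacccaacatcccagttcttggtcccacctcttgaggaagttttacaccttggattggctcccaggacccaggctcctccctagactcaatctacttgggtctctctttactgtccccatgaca
Tekt1, chr11:72361883-72362132, minus strand: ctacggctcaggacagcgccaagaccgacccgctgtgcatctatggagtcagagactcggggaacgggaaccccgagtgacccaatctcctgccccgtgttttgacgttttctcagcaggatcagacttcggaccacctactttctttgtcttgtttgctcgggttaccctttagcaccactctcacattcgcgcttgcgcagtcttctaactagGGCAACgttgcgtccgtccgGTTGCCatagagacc
Tmem212, chr3:27896369-27896618, minus strand: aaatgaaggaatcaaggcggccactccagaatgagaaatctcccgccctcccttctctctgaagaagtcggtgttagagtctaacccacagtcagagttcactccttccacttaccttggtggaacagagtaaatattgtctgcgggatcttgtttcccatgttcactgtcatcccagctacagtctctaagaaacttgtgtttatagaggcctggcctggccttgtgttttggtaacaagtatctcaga

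Counting from the start, GTTGCC began 39 bases upstream in Lrrc23, 152 bases upstream in Ccdc153 and 15 bases upstream in Tekt1, and Lrrc23 and Tekt1 held a second copy on the opposite strand 157 and 35 bases upstream. A match describes letters in this window and says nothing of binding. Tekt1 has 2 starts among these windows, and the one with GTTGCC is shown. Both of its windows lie inside the Tekt1 gene of the count tables, which starts farther upstream, at chr11:72362442. The 4 genes whose window held no GTTGCC were Tmem212, Dnah5, Dnah11 and Spag17.

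The count tables, built on mm10, place the genes on 7 chromosomes, and reads were counted over all exons of a gene. Tmem212 (chr3:27866065-27896368) and Spag17 (chr3:99885417-100143322) lay on chromosome 3, Dnah5 (chr15:28203766-28472045) and Efcab6 (chr15:83866712-84065349) on chromosome 15, and Foxj1 (chr11:116330704-116335354) and Tekt1 (chr11:72344717-72362442) on chromosome 11. Lrrc23 was at chr6:124769869-124779727, Ccdc153 at chr9:44240677-44247306, Rsph1 at chr17:31255020-31277356 and Dnah11 at chr12:117877982-118199043. The strand setting of the counting is not stated. Of the exons of Dnah11, 642 of 14072 bases overlap Cdca7l on the other strand. Of those of Spag17, 109 of 7862 bases overlap Wdr3, also on the other strand. The share of bases does not give the share of reads, so how uncertain the values of both are is not known. Cdca7l itself had group means of 1.02 to 1.20 CPM. The level of Wdr3 is not given here, and Spag17 had only 14 to 32 reads per sample. The exons of the other 8 genes overlap no other gene.

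All 10 genes were detected in all 22 samples and passed the filter on low counts in both sexes, at low levels. Per kilobase of exon, Foxj1, the master regulator of motile cilia, had the highest mean with 3.72 ± 0.47 CPM per kb (SD, n = 22). Ccdc153, a coiled-coil gene used as an ependymal marker, followed with 3.55 ± 0.77, Tmem212, a transmembrane protein gene typical of ependymal cells, with 3.08 ± 0.79 and Rsph1, a radial spoke head component, with 2.75 ± 0.46 CPM per kb. Neighbours among these 4 differed by less than their SD. A second block was formed by Tekt1, a tektin inside the doublet microtubule, with 1.79 ± 0.28, Lrrc23, a radial spoke protein, with 1.603 ± 0.42, Efcab6, an EF-hand protein, with 1.57 ± 0.19, and the outer arm dynein heavy chains Dnah11 and Dnah5 with 1.43 ± 0.39 and 1.39 ± 0.23 CPM per kb. Neighbours in that block also differed by less than their SD. Spag17, of the central apparatus, stood alone at 0.186 ± 0.034 CPM per kb. The median over the 15233 genes kept by the filter was 8.42 CPM per kb, and between 1.12% and 31.5% of those genes lay below a member.

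Tmem212 and Lrrc23 carry the pattern for which the set was made, and in the females they were lower in dominant than in submissive mice. For Tmem212, the 4 dominant females had 1.45, 1.57, 1.51 and 1.57 CPM and the 4 submissive ones 2.46, 2.25, 3.36 and 2.03 CPM. The dominant mice lay close together and below every submissive mouse. In dominant males Tmem212 ranged from 2.19 to 3.27 CPM with a median of 2.43, and in submissive males from 1.57 to 2.79 with a median of 1.79. The male ranges overlapped, and the dominant male was the higher one in 4 of 7 cages. The log2 fold change of dominant over submissive was 0.29 ± 0.15 (SE) in males and -0.72 ± 0.19 in females. These values rest on between 22 and 51 reads per sample.

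For Lrrc23, dominant females had 2.14, 2.77, 2.10 and 2.55 CPM and submissive ones 2.65, 3.32, 3.68 and 3.46 CPM. The dominant female was the lower one in each of the 4 cages, although the groups overlapped, since submissive female 1 lay below dominant female 2. Dominant males ranged from 1.72 to 2.81 CPM with a median of 2.17 and submissive males from 1.48 to 2.02 CPM with a median of 1.79. The dominant male was higher in 6 of 7 cages. The log2 fold change was 0.27 ± 0.13 (SE) in males and -0.46 ± 0.16 in females.

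**Figure D1:**
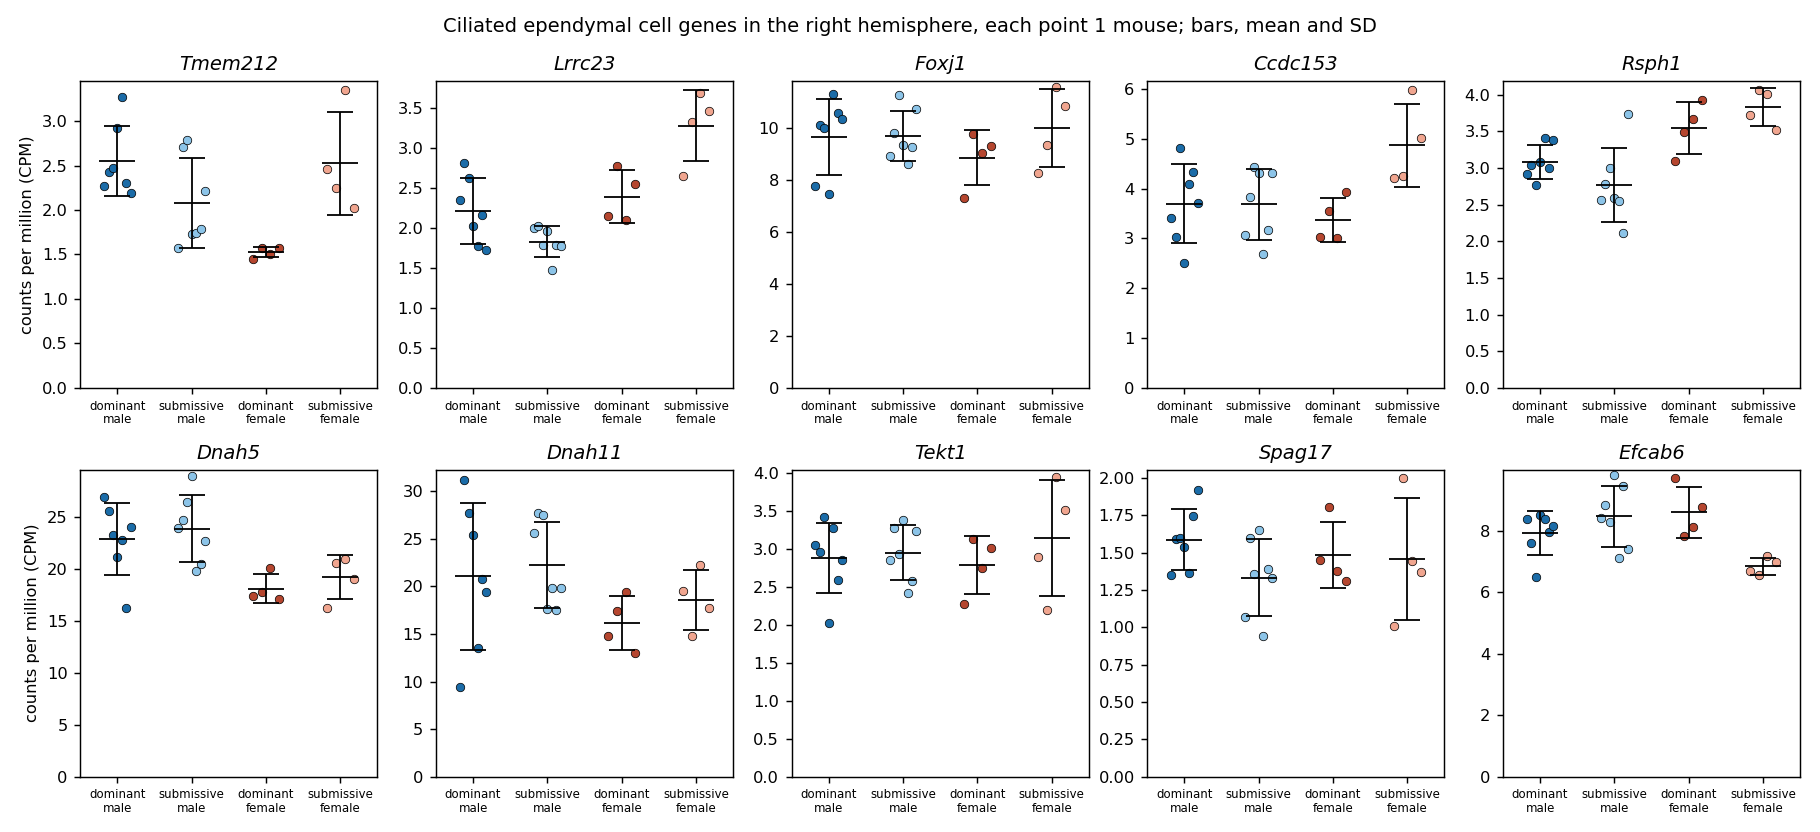
Counts-per-million (CPM, y axis, starting at 0) of the 10 genes in the 4 groups (x axis), with 1 point per mouse and bars for the mean and SD (7 mice per male group, 4 per female group). Tmem212 and Ccdc153 are lower in all dominant than in all submissive females and Efcab6 is higher, while the male groups of every gene overlap.

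Of the other 8 genes, Ccdc153 came closest to the female pattern and Efcab6 ran against it. For Ccdc153, dominant females had 3.03, 3.56, 3.01 and 3.92 CPM and submissive ones 4.22, 4.26, 5.99 and 5.01 CPM. The groups did not overlap, but the log2 fold change of -0.53 ± 0.15 (SE) missed the threshold after adjustment over all genes (edgeR quasi-likelihood test, adjusted p = 0.175; 4 of 4 cages lower). In males the ranges of Ccdc153 overlapped, with 2.51 to 4.81 CPM (median 3.71) in dominant and 2.68 to 4.44 CPM (median 3.83) in submissive mice and a log2 fold change of 0.01 ± 0.15.

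For Efcab6, dominant females had 9.71, 7.84, 8.12 and 8.76 CPM and submissive ones 6.68, 6.57, 7.17 and 6.97 CPM. Here every dominant mouse lay above the highest submissive one, and the log2 fold change was 0.32 ± 0.10 (edgeR adjusted p = 0.209; 4 of 4 cages higher). In males the medians were 8.15 CPM in dominant and 8.42 CPM in submissive mice, with ranges of 6.48 to 8.51 and 7.11 to 9.82 CPM and a log2 fold change of -0.10 ± 0.08. Among the 14865 genes tested in females, 2.1% had all dominant mice below all submissive mice and 3.36% had them all above. In males the respective shares of 14737 genes were 0.00679% and 0%, and 0 of the 10 genes had groups that did not overlap.

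For the regulator Foxj1, dominant females had 7.31, 9.77, 9.04 and 9.28 CPM and submissive ones 8.26, 9.33, 11.58 and 10.85 CPM. The groups overlapped (log2 fold change -0.18 ± 0.11, edgeR adjusted p = 0.616), with the dominant female lower in 3 of 4 cages. In males the medians were 10.09 CPM in dominant and 9.35 CPM in submissive mice, and the log2 fold change was -0.01 ± 0.09. For Rsph1, a radial spoke gene like Lrrc23, females had 3.09, 3.497, 3.67 and 3.92 CPM when dominant and 3.72, 4.07, 4.01 and 3.52 CPM when submissive, and the groups overlapped. Its log2 fold change was -0.12 ± 0.13 in females (edgeR adjusted p = 0.819) and 0.15 ± 0.12 in males.

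None of the 4 remaining structural genes of the axoneme passed the test in either sex. Dnah5 had a log2 fold change of -0.06 ± 0.10 (SE) in males and -0.09 ± 0.08 in females, with 16.3 to 28.9 CPM over the males and 16.3 to 21.0 CPM over the females. Dnah11, its partner in the outer arm, had -0.09 ± 0.20 in males and -0.21 ± 0.12 in females, and Tekt1 had -0.03 ± 0.12 and -0.17 ± 0.18. Spag17 had 0.26 ± 0.15 in males and 0.03 ± 0.22 in females, from 14 to 32 reads per sample. The adjusted p of these 4 genes was 1.00 in males and between 0.564 and 0.979 in females (edgeR). Dnah11 ranged from 9.45 to 31.2 CPM in dominant and from 17.5 to 27.8 CPM in submissive males.

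**Figure D2:**
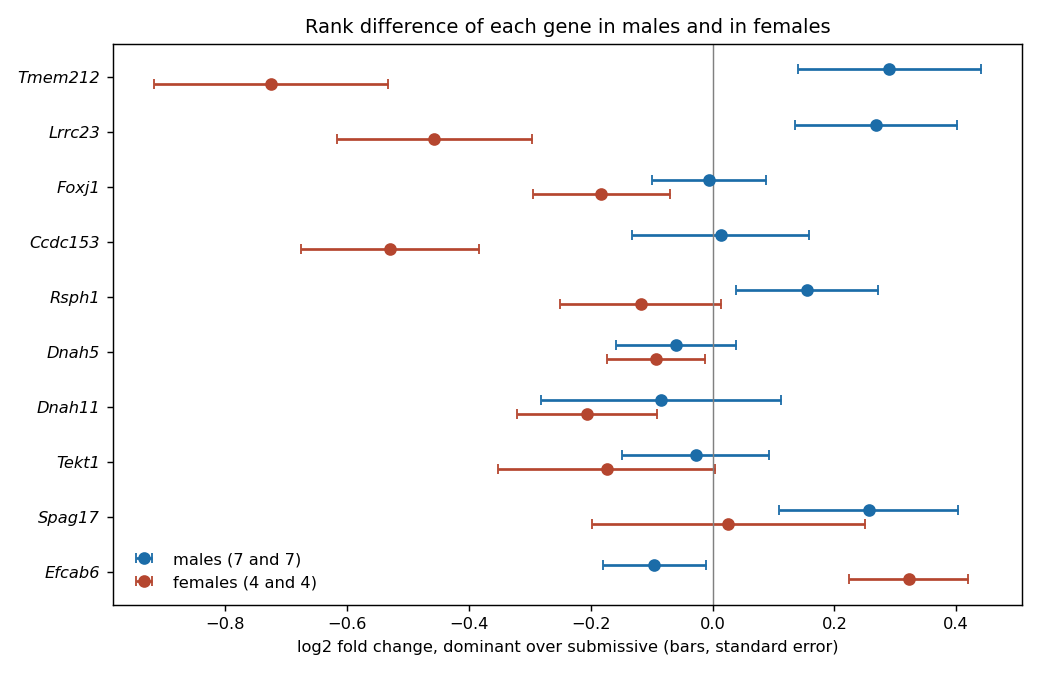
Log2 fold change of dominant over submissive mice (x axis) for each gene (y axis), with points for the edgeR estimate and bars for its standard error, in males (7 and 7 mice) and females (4 and 4). Leaving aside Tmem212 and Lrrc23, which were chosen on these values, 6 of 8 points lie left of 0 in females and 5 of 8 in males.

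None of the 8 genes beside Tmem212 and Lrrc23 passed the rank test in either sex. In males, 0 of the 8 had an adjusted p under 0.05 (edgeR), against 0% of 14737 genes, and 0 had an unadjusted p under 0.05, against 1.32%. DESeq2 also called 0 of the 8. In females, 0 of the 8 had an adjusted p under 0.05, against 0.0942% of 14865 genes. An unadjusted p under 0.05 was seen there for Ccdc153 and Efcab6, in opposite directions, against 10.5% of genes. DESeq2 left out all 8 in females through its own filter, and so gave no adjusted p. The difference between the female and the male rank effect was tested for the other 8 genes, and 0 passed (edgeR, against 0% of 15233 genes). An unadjusted p under 0.05 was reached there by Ccdc153 with -0.54 ± 0.22 and Efcab6 with 0.42 ± 0.13 on the log2 scale, against 3.32% of all genes. For Tmem212 and Lrrc23 that difference was -1.01 ± 0.25 and -0.72 ± 0.20, given without a test.

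Without the 2 genes that led to the set, the median log2 fold change of the other 8 was -0.15 in females and -0.02 in males, where the median over all genes was -0.002 and -0.0015. With 1 mouse left out, the female value was -0.07 without submissive female 3 and -0.08 without dominant female 1, and the male value ran from -0.06 to 0.04 and was above 0 without dominant male 1 or 4 or submissive male 3 or 7. A negative value was found for 6 of the 8 in females, against 50.9% of all genes, and for 5 of the 8 in males, against 51.4%. Cage by cage, the dominant female was the lower one in 22 of 32 comparisons of these 8 genes, and the dominant male in 25 of 56. These comparisons share mice and are not independent. In the 2 Gr cages the median log2 fold change of the 8 was -0.21, and in the 2 numbered cages it was -0.05. In males it was -0.10 in cages 1 to 4 and 0.13 in cages 5 to 7, so its sign turned between the cages that lay apart on the first principal component.

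The question was carried to the wider motile cilia machinery, 8 lists of genes chosen by function that hold 87 further genes in the count tables. In females 60 of the 81 tested genes had a lower fitted value in dominant mice, with a median log2 fold change of -0.12, and 0 passed the test (edgeR, against 0.0942% of all genes). An unadjusted p under 0.05 was seen for 15 genes with a lower value and for 2 with a higher value, where 4.08% of all genes were lower and 6.43% higher at that level. In males 37 of 80 had a lower fitted value, the median was 0.0048, and 0 passed. These lists share mice with the results above and were chosen with earlier results of these data known.

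By role, the inner dynein arm genes had the lowest female median, -0.29 over 7 genes, 6 of them with a negative value. Without Lrrc23, the radial spoke and central pair genes had -0.11 with 8 of 10 negative, the outer arm genes -0.10 with 7 of 10, the assembly factors -0.12 with 5 of 7, and the regulators -0.10 with 5 of 7. The regulatory complex and ruler genes had -0.06 with 6 of 8, the doublet and microtubule inner proteins -0.08 with 9 of 13, and the remaining genes of ciliated ependymal cells, without Tmem212, -0.17 with 20 of 27. In males the medians of these 8 lists lay between -0.05 and 0.04. The lists hold the other 8 members too, so the values are not separate from those above. Intraflagellar transport genes, which build primary cilia as well as motile ones, were even, with 10 of 20 negative in females and a median of -0.01.

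Single genes outside the set, the 1 in each list with the smallest p for the difference between the female and the male rank effect, are given for comparison. Ttc25, which docks outer dynein arms, was at 1.54 ± 0.20 CPM (SD, n = 4) in the dominant females and at 2.30 ± 0.29 CPM in the submissive ones (log2 fold change -0.59 ± 0.18 SE, edgeR adjusted p = 0.227). Lrrc6, a factor for dynein arm assembly, had 7.34 ± 1.00 and 9.23 ± 0.78 CPM (adjusted p = 0.235). Kif9, a kinesin of the central apparatus, had 5.63 ± 0.63 and 7.01 ± 0.55 CPM (adjusted p = 0.276). For Dnali1, an inner arm light chain, the values were 1.47 ± 0.36 and 2.14 ± 0.37 CPM (adjusted p = 0.359). None of these 4 passed the test, and their male log2 fold changes lay between 0.01 and 0.12. Choosing genes by the difference between the rank effects favours a female value unlike the male one. The adjusted p of that difference was 0.9986 for each of the 4 (edgeR). Rfx3, an X-box factor also expressed outside ependyma, was at 126.8 ± 6.73 CPM in the dominant females and at 119.0 ± 4.13 CPM in the submissive ones. Its fitted difference was 0.08 ± 0.04 on the log2 scale in females (edgeR adjusted p = 0.461) and -0.05 ± 0.07 in males. For Nme5 and Iqcg, of the radial spoke and the regulatory complex, and Enkur, a microtubule inner protein, the female values were -0.13, -0.20 and -0.29. Their male values were 0.09, 0.07 and 0.10.

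**Figure D3:**
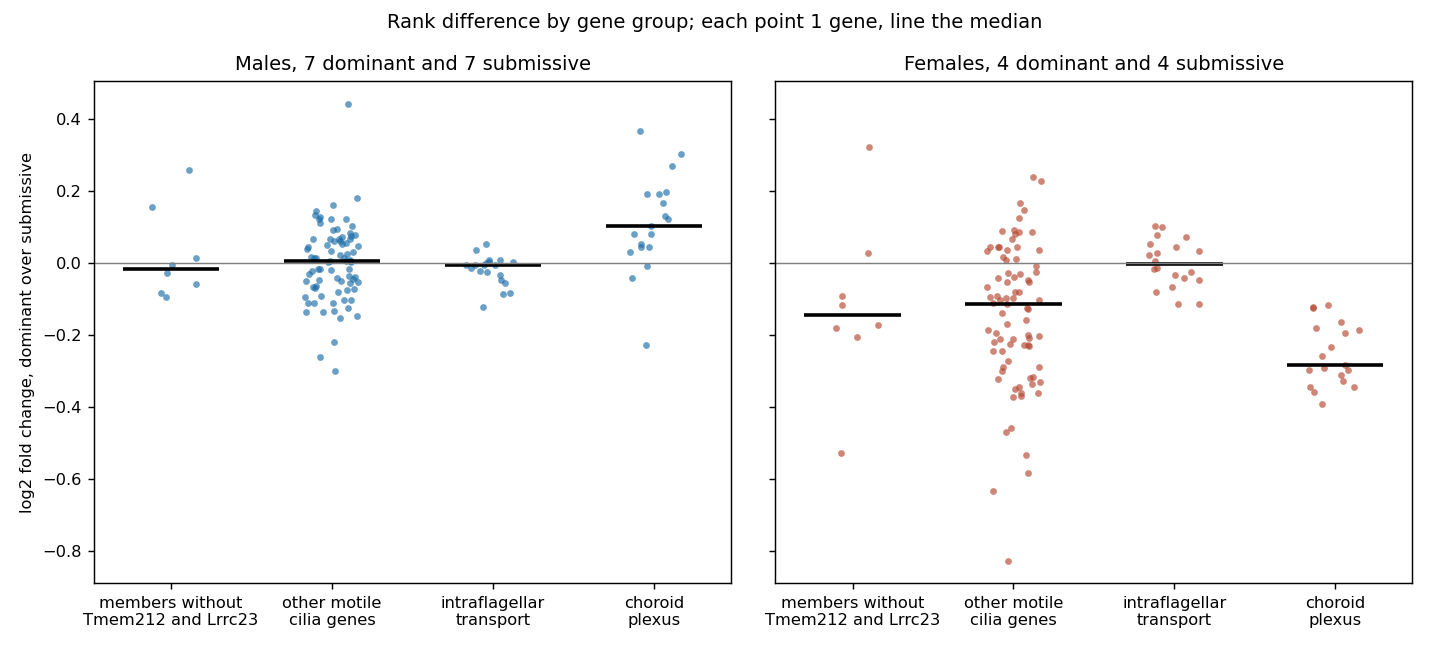
Log2 fold change of dominant over submissive mice (y axis) for the 8 members beside Tmem212 and Lrrc23, the other motile cilia genes, intraflagellar transport genes and choroid plexus genes (x axis), in males on the left and females on the right, with 1 point per gene and a line at the median. The female medians are -0.15, -0.12, -0.01 and -0.28, and the male medians -0.02, 0.0048, -0.01 and 0.10.

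Choroid plexus epithelium, which sits in the same ventricles and makes cerebrospinal fluid, was looked at beside the cilia genes. All 19 of its marker genes had a lower fitted value in dominant females, with a median log2 fold change of -0.28, and 16 of 19 had a higher one in dominant males, with a median of 0.10. None passed the test in either sex (edgeR), and an unadjusted p under 0.05 was seen for 9 of 19 in females, against 10.5% of all genes, and 2 of 19 in males, against 1.32%. In females 5 passed without submissive female 2 and 1 passed without dominant female 2. The counts over all genes with 1 female left out are not given here. In the 2 Gr cages alone 5 passed, where 120 of 14919 genes passed, against 14 of 14865 with all females. In males the number with a lower fitted value was 3 of 19 with all mice, 7 without dominant male 2, 5 without submissive male 4, 1 in cages 1 to 4 and 7 in cages 5 to 7. The summed level of the 19 genes ranged over 1679 to 1895 CPM for dominant females, 1577 to 2213 CPM for submissive females, 1436 to 2284 CPM for dominant males and 1256 to 1953 CPM for submissive males, with overlapping ranges and no marker at 0 in any sample. Ttr, the thyroid hormone carrier transthyretin, was at 709.7 ± 65.9 CPM (SD, n = 4) in the dominant females against 808.5 ± 140 CPM in the submissive ones, and at 722.5 ± 144 against 585.6 ± 126 CPM (SD, n = 7) in the males. Folr1, a folate receptor, had 6.55 ± 0.74 and 8.28 ± 1.03 CPM in the females and 7.60 ± 1.28 and 5.88 ± 1.36 CPM in the males. Kcnj13, a potassium channel, had 9.93 ± 0.57 and 11.27 ± 2.70 CPM in the females and 9.86 ± 2.30 and 9.49 ± 2.23 CPM in the males. How far the amount of ventricle wall or plexus in a sample contributed to the values of Tmem212, Lrrc23 and Ccdc153 was not tested. In the 2 numbered female cages alone, 13 of 19 choroid plexus genes and 52 of 80 motile cilia genes had a lower fitted value.

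In females, markers of other cell types near the ventricle had medians nearer to 0 than the motile cilia and choroid plexus genes. The female median log2 fold change was -0.03 over 8 astrocyte markers (5 negative) and 0.03 over 10 markers of the subventricular zone and its neuroblasts (5 negative). It was 0.05 over 3 tested tanycyte markers (0 negative) and -0.05 over 8 markers of meningeal fibroblasts (7 negative). The corresponding male medians were -0.02, -9e-04, 0.05 and -0.05.

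Between the sexes, a contrast the choice of the set did not use, 3 of 10 genes passed the test (edgeR), against 36.2% of 15233 genes, so the share lies near the background. Lrrc23 was higher in females by 0.48 ± 0.10 (log2, SE; adjusted p = 0.000443), with 1.96 ± 0.41 CPM per kb (SD, n = 8) against 1.40 ± 0.25 (SD, n = 14) in males. Rsph1, the other radial spoke gene, was higher by 0.33 ± 0.08 (adjusted p = 0.00314), with 3.17 ± 0.28 against 2.51 ± 0.36 CPM per kb. Dnah5 was lower in females by -0.32 ± 0.08 on the log2 scale (adjusted p = 0.00159), with 1.20 ± 0.11 against 1.496 ± 0.21 CPM per kb. The summed exons of Dnah5 are long, 15616 bases, and with offsets that remove each sample's trend on exon length its value was -0.10 (adjusted p = 0.170, with a range of 6.66e-05 to 0.170 over the alternatives). Tmem212 did not pass (-0.23 ± 0.12, adjusted p = 0.142), except without submissive female 3 (adjusted p = 0.0409). Dnah11 did not pass either (-0.32 ± 0.15, adjusted p = 0.0997), except without dominant male 1 (0.0148) or dominant male 5 (0.0458). The other motile cilia genes split as 2 higher and 19 lower among the 82 tested, against 18.4% and 17.8% of all genes. None of this can be assigned to sex, because the library names of males and females carry different prefixes.

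Whether cage mates share a level was asked next, and 0 of 10 genes passed the test of cage in males (edgeR, against 5.89% of 14737 genes) and 0 of 10 in females (against 0.074% of 14865 genes). An unadjusted p under 0.05 was reached by Dnah5 in males (against 22.3% of genes) and by Foxj1 and Dnah11 in females (against 5.11%), and DESeq2 called 0 of those it tested. Dnah11 in males depended on cage 1, where dominant male 1 had 9.45 CPM and submissive male 1 had 25.6 CPM. Its adjusted p for cage was 0.298 with all males, 0.0129 without dominant male 1 and 0.00147 without submissive male 1. In females it was 0.884 with all mice and 0.0237 without dominant female 2.

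The genes were then compared with each other across mice after subtracting the mean of each rank, which takes out the contrast behind the set. Against Tmem212, 8 of the other 9 genes had a positive Pearson r in males (median 0.156, n = 14) and 8 of 9 in females (median 0.378, n = 8). Without submissive female 3 the female median was -0.27. None of these 18 relations passed after adjustment (permutation of samples within rank, two-sided, exact in females, lowest adjusted p = 0.848 for r and 0.684 for Spearman's rho). Within male cages 1 to 4 (8 mice) r ran from -0.39 for Lrrc23 to 0.80 for Rsph1, and within cages 5 to 7 (6 mice) from -0.68 for Dnah11 to 0.86 for Tekt1. Lrrc23 itself had an r of -0.09 with Tmem212 in males and 0.29 in females. Female cages were too few to be split.

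Against the mean of the other 9 genes, given as a description, Ccdc153 had an r of 0.62 in males and 0.80 in females, Tekt1 0.61 and 0.60, and Foxj1 0.53 and 0.85. Dnah11 had 0.10 and 0.20 and Efcab6 had -0.08 and -0.21, the lowest of the 10 apart from Spag17 at 0.15 in females. The 10 genes outside the set whose profile was most like the mean of the 10 were Fam216b, Myb, Nfya, Stk32b, Myo7a, Saxo2, Atf6b, Hydin, Ccdc33 and Adi1, with a mean r over both sexes of 0.81 down to 0.74 among 15223 genes. Of these, Myb and Hydin are in the motile cilia lists, MYB as a regulator of multiciliated cells and HYDIN as a central apparatus protein. The median likeness was 0.20 over 82 motile cilia genes, 0.15 over 19 choroid plexus genes and -0.0044 over all genes.

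Dnah11 was set against Pcp2 after dominant male 1 had been seen with 0 Pcp2 counts and the lowest Dnah11 value. In males, after subtraction of rank means, Pearson's r was 0.73 and Spearman's rho 0.60 (n = 14), given without a test because dominant male 1 led to the comparison. Without the 2 males farthest from the median of Pcp2, r was 0.50. It was 0.96 in cages 1 to 4 (8 mice) and 0.41 in cages 5 to 7 (6 mice). In females r was 0.97 and rho 0.95 (n = 8, exact permutation within rank, two-sided, adjusted p = 0.0347 and 0.0694 over 20 relations, raw p = 0.00174 and 0.00347, the first being the smallest these permutations can give), and r was 0.96 without the 2 females farthest from the median of Pcp2. The female r passed after adjustment, while the female rho did not. These permutations did not keep cage mates together, and Dnah11 had an unadjusted p under 0.05 for cage in females (edgeR).

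Pcp2 ranged from 0 to 46.4 CPM in males and from 35.4 to 59.9 CPM in females. No other gene of the set had an adjusted p for r with Pcp2 below 0.694. The amount of cerebellar tissue in a sample was not measured, and its part in the level of Dnah11 was not tested.

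**Figure D4:**
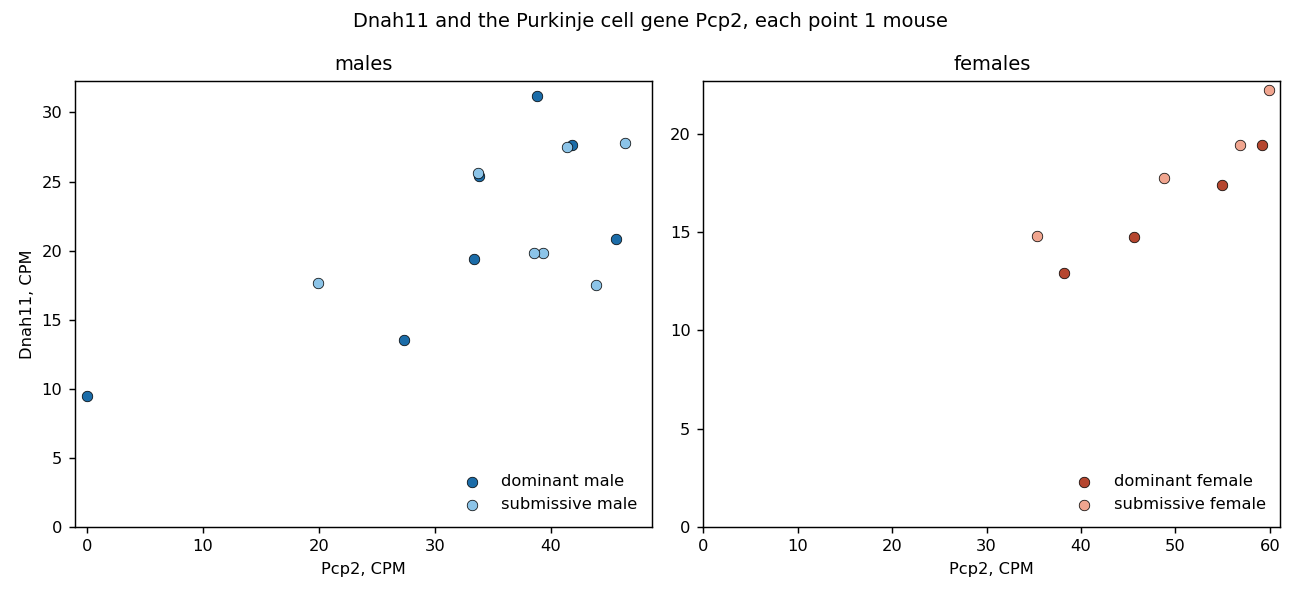
Dnah11 (y axis, CPM, from 0) against Pcp2 (x axis, CPM) in males on the left and females on the right, with 1 point per mouse. Dominant male 1 lies at 0 Pcp2 and 9.45 CPM Dnah11, and in females the points rise together within both ranks.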

How the data were processed

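The deposited values are raw read counts per gene, with 1 table for males and 1 for females. According to the study's methods and the submitters' processing notes, the authors trimmed single-end total RNA reads with cutadapt (version 1.15), aligned them to mm10 with STAR (2.6.0a) and made the counts with featureCounts (1.6.2). The strand setting and the treatment of reads with several matches are not given in the sources used here.

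Genes were kept by edgeR's filterByExpr (minimum count 10, minimum total 15), given TMM factors and fitted with the quasi-likelihood test of edgeR (version 4.0.16, R 4.3.3), the Benjamini-Hochberg adjustment running over all genes, with a threshold of 0.05. Standard errors were taken from the F statistic. The study itself used DESeq2, which was run here as an alternative (1.42.0). CPM were scaled over all 22 samples, and log2 CPM had a prior count of 2. Correlations used 100000 permutations in males and all permutations in females. Fits were also run on simulated counts drawn independently for each mouse, and the outcome is not given here. In the fits for rank, sex and their interaction, p-values rest on the spread between mice, and cage mates count as independent. In the fits for cage they rest on the spread within cages. A cage block was tried for rank and for the interaction, not for sex.

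Replicate numbers mark a shared cage per the library names, and cage mates were killed at the same time. Deviations of same-numbered samples correlated with a mean r of 0.157 in males and 0.0211 in females. The members and lists were chosen with earlier results of these data known. Beside the 10 members, the text names from each motile cilia list the gene with the smallest p for the rank by sex interaction, 3 choroid plexus genes and the 10 genes most like the set; Pcp2, Cdca7l and Wdr3 were chosen after their values or positions were seen. Alternatives covered the tool, scaling, filter, prior, cage block, exon length offsets and left-out samples. In the tables, 27 gene names read as dates and were left as they are.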

Additional observations from a re-analysis of the deposited data

How the results depend on the processing

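Leaving aside Tmem212 and Lrrc23, which were chosen on these contrasts, 0 of the other 8 members passed for rank or for the rank by sex interaction where an adjusted p was given. DESeq2 gave none of the 8 an adjusted p in females, and a mean count of at least 50 left 6 of them tested in females and 5 in males and in the interaction. The median of those tested lay below 0 in females and in the interaction under each alternative tried. With 1 sample left out it ran from -0.1762 to -0.0719 (without submissive female 3) in females, from -0.2297 to -0.056 in the interaction and from -0.0621 to 0.0396 in males. In males it was also -0.1047 in replicates 1 to 4 only, 0.1263 in replicates 5 to 7 only and -0.0599 with a mean count of at least 50. Calls changed elsewhere. A mean count of at least 50 left 5 members tested between the sexes, of which 1 passed, against 5284 of 12500 genes. Without the filter on low counts, 1 motile cilia gene outside the members and 2 choroid plexus genes passed in females. Replicates 1 and 2 only gave a female median of -0.0527 over the 8 and -0.0786 over all 10. Replicates 3 and 4 only gave -0.2105 and -0.31, and there 5 choroid plexus genes passed, with 120 of 14919 genes passing over all. This split was chosen after seeing the data. Leaving out 1 sample moved the female median over all 10 between -0.2588 (without submissive female 2) and -0.0937 (without dominant female 1), the count of members passing for cage between 0 and 1 in males and in females, the count of choroid plexus genes passing in females between 0 and 5, and the median r with Tmem212 in females between -0.27 and 0.54, the first without submissive female 3. These 5 choroid plexus calls came without submissive female 2, and 1 call came without dominant female 2. The count of members differing between the sexes lay between 3 and 4 with 1 sample left out. It was 2 with exon length offsets, where Dnah5 was lost and 5322 of 15233 genes passed. The cage as a replicate block changed no call of the 8, with a median of -0.1424 in females, and moved the count over all genes in females from 14 to 36. The count over all genes was 63 with DESeq2, 84 without the filter, 2 with a mean count of at least 50, and 0 with exon length offsets or with all samples in one fit. Signs turned only for values that did not pass. In males, Ccdc153 was -0.18 in replicates 1 to 4 only, and in replicates 5 to 7 only Foxj1 was 0.17, Dnah5 0.007, Tekt1 0.0801 and Efcab6 0.0326. In females, Spag17 was -0.0203 with exon length offsets, -0.0204 when the replicate block was added, and -0.0838 in replicates 3 and 4 only, where Rsph1 was 0.0002, and Tekt1 was 0.0911 in replicates 1 and 2 only. Tekt1 between the sexes was -0.0129 with exon length offsets. Leaving out 1 sample also turned signs: in males Foxj1 lay between -0.0497 and 0.0439, Ccdc153 between -0.0581 and 0.0821, Dnah5 between -0.1025 and 0.0098, Dnah11 between -0.2055 and 0.0422 and Tekt1 between -0.0724 and 0.0353, in females Spag17 between -0.1145 and 0.2155, in the difference of rank effects Dnah5 between -0.0976 and 0.0179 and Dnah11 between -0.2413 and 0.0047, and between the sexes Tekt1 between -0.0521 and 0.0787 and Spag17 between -0.0864 and 0.0791. The cause was not tested. Low counts limit precision, since Tmem212, Lrrc23, Tekt1 and Spag17 had at most 60 reads in any sample.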
